A study of Mus musculus with 6 samples.

Results

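The genes described here are 9 transcription factors that set and maintain the hepatocyte gene program: Hnf4a, Foxa2, Cebpa and Cebpb, and the nuclear receptors Nr1h3, Rxra, Nr5a2, Esr1 and Thrb. They were taken by symbol from the deposited gene tables of mouse liver RNA, where each of the 9 was found in all 6 libraries, out of 18443 genes in all. The set was listed by name, without a cutoff on any value in these tables, but with earlier results of these data known.

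Hepatocyte identity is held by a network of factors that bind together at liver enhancers and at each other's promoters. HNF4A and the C/EBP family keep metabolic and secretory genes on, FOXA2 opens chromatin for them, and the nuclear receptors tie the same genes to sterols (Nr1h3, encoding LXR alpha), bile acid and phospholipid metabolism (Nr5a2, encoding LRH-1), estrogen (Esr1) and thyroid hormone (Thrb). RXRA is the partner with which LXR and the thyroid hormone receptor bind DNA.

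JT003 is a peptide agonist of the adiponectin receptors AdipoR1 and AdipoR2. It was given to male C57BL/6 mice (C57BL/6J in the methods) in 2 models of liver disease. The mice are described as 6 to 8 weeks old, without the stage of the experiment this refers to. If it is the age at the start, mice were older after 16 weeks of diet or 6 weeks of CCl4. In the diet model, SD denotes the library labelled as the chow control, HFD the library labelled NASH, from mice that the methods place on a high-fat diet for 16 weeks, and HFD plus JT003 the same with daily intraperitoneal JT003 at 500 µg/kg for 4 weeks. In the CCl4 model, the groups were corn oil (the vehicle), CCl4 (20% in corn oil, 5 ml/kg every 3 days for 6 weeks) and CCl4 plus JT003 (500 µg/kg daily for 3 weeks). Mice were fasted for 8 h before the livers were taken, and groups held 6 mice. The study names the sequenced diet groups SD, HFD and HFD plus JT003, and describes a further NASH model in which a diet deficient in methionine and choline was added. It is not said whether a library holds RNA of 1 mouse or of several, nor at what time of day livers were collected.

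There was 1 library per condition, so no value here has a replicate error. Each comparison sets 1 library against another and not 1 condition against another, and the intervals given cover counting error only. Rounded expected counts summed to 19374236 to 20184539 per library. Of the 12 hepatocyte markers, 11 were in the tables, all with reads in all 6 libraries. Their summed CPM (counts relative to library size) ran from 96562 in HFD to 117155 in corn oil, with Alb as the largest part. Marker lists of other cells differed between libraries: the 5 cell cycle genes summed to 139 CPM in CCl4, 17.2 in CCl4 plus JT003 and 3.18 to 8.48 in the other 4, the 8 macrophage genes to 66.5 in corn oil and 410 in HFD plus JT003 at the extremes, and the 7 stellate cell and myofibroblast genes to 82.8 in corn oil and 287 in CCl4. Sinusoidal endothelium (6 genes) ranged from 66.7 CPM in CCl4 to 242 in HFD plus JT003, bile duct (4 genes) from 7.12 in HFD to 33.5 in CCl4, fetal or injured hepatocyte (6 genes) from 22.0 in HFD plus JT003 to 136 in CCl4, lymphocyte (6 genes) from 6.88 in corn oil to 17.6 in HFD plus JT003, and neutrophil (4 genes) from 4.08 in SD to 8.97 in HFD plus JT003. Of all these markers, Cd3e was at 0 in CCl4 and Mpo at 0 in SD. In bulk RNA, fewer cells of a type and less RNA per cell cannot be told apart.

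Promoter sequence is shown for the C/EBP paralogues, whose ratio differed between the libraries, and for Nr5a2, which had the widest range of the 9 genes over the libraries. RefSeq start sites (GRCm38.p6) gave 17 windows for the 9 genes, and the 250 bases before each start were read. The window of Cebpa is chr7:35119043-35119292 on the plus strand, that of Cebpb chr2:167688665-167688914 on the plus strand, and those of the first and second start of Nr5a2 chr1:136960449-136960698 and chr1:136953631-136953880 on the minus strand. None of these 4 overlaps an annotated exon. The capitals in Nr5a2 start 1 mark a nuclear receptor half-site (AGGTCA, searched on both strands), 64 to 59 bases before the start, and those in Nr5a2 start 2 a C/EBP motif (TTGCNNAA on either strand), 243 to 236 bases before the start.
Cebpa: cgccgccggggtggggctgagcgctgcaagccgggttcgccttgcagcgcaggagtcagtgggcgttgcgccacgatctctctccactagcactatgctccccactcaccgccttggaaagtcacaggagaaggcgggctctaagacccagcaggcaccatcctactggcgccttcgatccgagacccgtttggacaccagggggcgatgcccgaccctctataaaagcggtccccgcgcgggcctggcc
Cebpb: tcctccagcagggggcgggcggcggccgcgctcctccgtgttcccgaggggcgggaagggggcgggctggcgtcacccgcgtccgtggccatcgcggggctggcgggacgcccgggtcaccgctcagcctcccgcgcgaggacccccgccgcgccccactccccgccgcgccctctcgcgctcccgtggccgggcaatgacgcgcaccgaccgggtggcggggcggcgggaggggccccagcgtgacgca
Nr5a2 start 1: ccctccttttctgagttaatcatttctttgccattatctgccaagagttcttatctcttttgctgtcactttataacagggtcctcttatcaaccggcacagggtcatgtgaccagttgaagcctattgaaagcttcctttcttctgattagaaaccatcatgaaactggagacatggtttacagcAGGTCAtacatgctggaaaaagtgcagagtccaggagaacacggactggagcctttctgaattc
Nr5a2 start 2: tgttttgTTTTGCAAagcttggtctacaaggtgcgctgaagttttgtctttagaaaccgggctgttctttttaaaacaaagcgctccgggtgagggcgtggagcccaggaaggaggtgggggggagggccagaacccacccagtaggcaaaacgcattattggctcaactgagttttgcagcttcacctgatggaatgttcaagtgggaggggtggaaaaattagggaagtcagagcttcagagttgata
The Cebpb window holds 81.6% G and C and the Cebpa window 66.4%, where the median of all windows is 52.4%, and neither holds one of the 7 motifs searched. Of the 32851 windows of all genes, 14.0% hold the half-site and 9.56% the C/EBP motif. The remaining motifs were the LRH-1 motif CAAGGTCA, which contains the half-site (1.33% of windows), the FOXA motif TGTTTAC (3.17%), the HNF6 motif ATCGAT (0.728%), the HNF1 motif (GTTAAT and ATTAAC with 1 base between them, 0.00913%) and the E-box CACGTG (6.02%). These matches are a description of the windows, and no binding was measured here.

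The 9 genes covered a wide range of levels, from Cebpa, with a median FPKM (fragments per kilobase of transcript, scaled to library size, as deposited) of 178 over the 6 libraries, to Esr1 with 2.67. Hnf4a followed Cebpa with a median FPKM of 168, then Rxra with 111, Nr1h3 with 55.2, Cebpb with 49.9, Foxa2 with 14.35, Nr5a2 with 8.99 and Thrb with 4.535. The ranges of Cebpa (128 to 187) and Hnf4a (145 to 203) overlapped, as did those of Nr1h3 (48.9 to 60.3) and Cebpb (32.1 to 91.1), of Foxa2 (12.1 to 18.3) and Nr5a2 (5.24 to 13.5), of Nr5a2 and Thrb (3.37 to 7.45), and of Thrb and Esr1 (1.36 to 3.28). Rxra, from 84.1 to 127, did not overlap Hnf4a or Nr1h3. Within the families, the member was the highest form in each library for RXR, LXR and HNF4: Rxrb had a median FPKM of 13.85 and Rxrg of 3.715, Nr1h2 (LXR beta) of 19.555 and Hnf4g of 0.025. Esr2 had a median FPKM of 0.175. In contrast, Foxa3 had a median FPKM of 26.4, above Foxa2, with Foxa1 at 8.425, and Thra had 7.29, above Thrb. Cebpd had a median FPKM of 4.475.

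**Figure D1:**
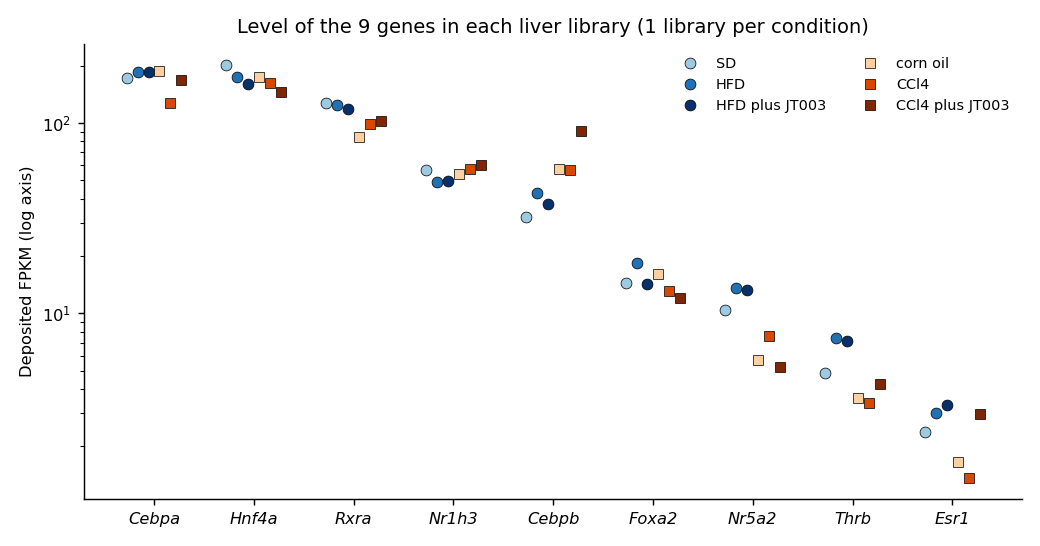
Deposited FPKM (log axis) of the 9 genes, ordered by their median, in the 6 liver libraries, with 1 point per library, circles for the diet model and squares for the CCl4 model. Cebpb is higher, and Rxra, Nr5a2 and Thrb are lower, in all 3 CCl4-model libraries than in all 3 diet libraries.

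To compare libraries, counts were scaled to CPM with TMM (trimmed mean of M values) factors. On this scale the highest library was 2.86 times the lowest for Nr5a2, 2.44 times for Esr1, 2.39 times for Cebpb and 2.29 times for Thrb. The ratio was 1.75 for Cebpa, 1.71 for Foxa2, 1.66 for Hnf4a, 1.46 for Rxra and 1.29 for Nr1h3. Thus 4 of the 9 reached a 2-fold range, where 32.4% of the 9376 genes with a mean of at least 100 counts did. The largest contrast for several of them was between the models: 4 of the 9 did not overlap between the 3 diet and the 3 CCl4-model libraries, against 28.0% of the 18383 genes with reads. This split was chosen after the values were seen. Model, its length (16 weeks of diet, 6 weeks of CCl4), any difference in age, vehicle and time of the experiment cannot be told apart in it. Between the controls, the log2 ratio of Thrb in corn oil over SD was -0.34, and 0.019 after centring by GC content and length. Cebpb, Rxra and Nr5a2 kept their sign there. The split itself was not repeated with this centring.

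Calls needed at least a 2-fold difference and an adjusted p under 0.001 (exact conditional binomial test, Benjamini-Hochberg over all genes with reads), and were repeated at a lower limit of 1.5-fold. HFD over SD called 0 of the 9 genes at 2-fold, against 5.37% of 16972 genes, and 0 at 1.5-fold, against 11.1%. HFD plus JT003 over HFD called 0 at either limit, against 1.63% and 4.38% of 17089 genes. By the adjusted p alone, without a fold limit, these 2 comparisons passed 6 and 3 of the 9, against 23.4% and 14.2% of genes. CCl4 over corn oil called 0 at 2-fold (7.18% of 17234 genes) and 1 at 1.5-fold, Cebpa (13.9%). CCl4 plus JT003 over CCl4 called 1 at 2-fold, Esr1 (4.42% of 17393 genes), and 3 at 1.5-fold, with Cebpb and Nr5a2 added (10.6%). The adjusted p alone passed 4 and 5 of the 9 in these 2, against 26.1% and 24.0%. Among genes with a mean of at least 100 counts, which all 9 had, the shares called at 1.5-fold were 16.8%, 6.54%, 19.2% and 15.4% in the 4 comparisons. When a coefficient of variation of 0.2 between livers was assumed in place of counting error alone, 0 of the 9 were called in each of the 7 comparisons made. Few genes of any kind were called then, from 19 of 17089 in HFD plus JT003 over HFD to 346 of 17234 in CCl4 over corn oil. The 2 comparisons of a model share a library (HFD or CCl4), so their values are set side by side and not taken as 2 separate observations.

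**Figure D2:**
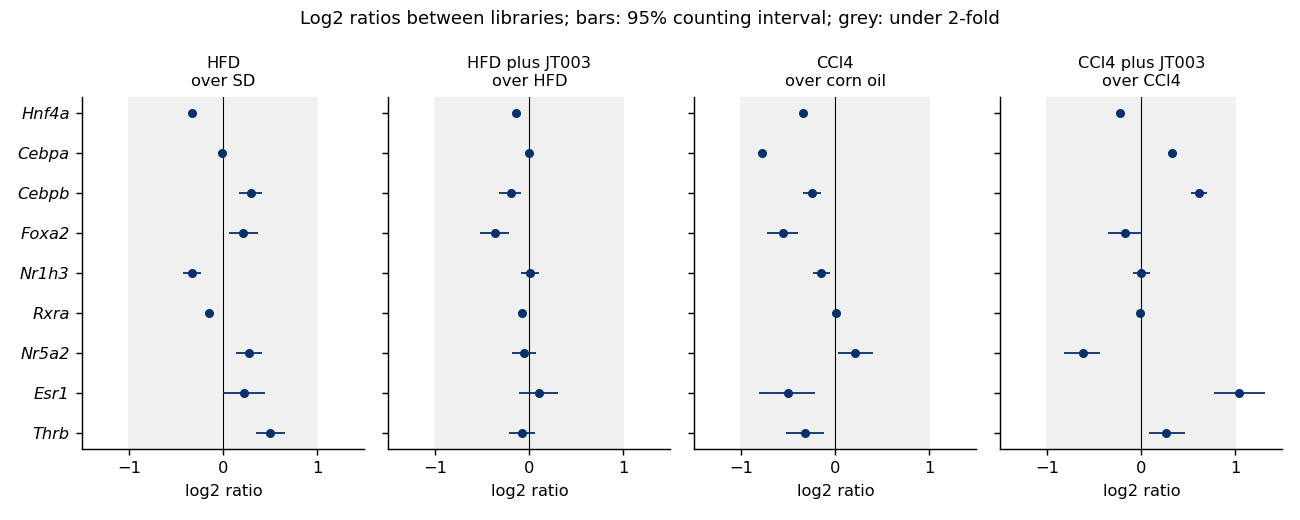
Log2 ratios of the 9 genes in the 4 main comparisons, with 95% counting intervals as bars and the region under 2-fold in grey. Only Esr1, at 1.03 in CCl4 plus JT003 over CCl4, lies outside the grey region.

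Hnf4a, the master regulator of the differentiated hepatocyte, had 18156 (SD), 15370 (HFD) and 14133 counts (HFD plus JT003). In the CCl4 model it had 15044 (corn oil), 14492 (CCl4) and 12467 counts (CCl4 plus JT003). The control was thus the highest library of each model and the JT003 library the lowest. HFD over SD gave a log2 ratio of -0.33 (95% interval -0.36 to -0.30), and CCl4 over corn oil gave -0.34 (-0.38 to -0.31). With JT003 it was -0.14 (-0.18 to -0.11) in the diet model and -0.23 (-0.26 to -0.19) in the CCl4 model. Set against the controls, HFD plus JT003 over SD was -0.48 (-0.51 to -0.44), and CCl4 plus JT003 over corn oil was -0.57 (-0.60 to -0.54). These are differences of under 1.5-fold that the depth of Hnf4a resolves from counting error, and 47.7% of genes in HFD over SD and 45.1% in CCl4 over corn oil differed by less. The antisense gene Hnf4aos had 14, 27 and 59 counts in the diet model and 38, 20 and 74 in the CCl4 model, in the same order of groups. Strand is not stated for the counting, so reads of the 2 genes cannot be told apart by it. Hnf4aos reached at most 0.594 counts per 100 of Hnf4a.

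Genes that HNF4A is known to activate were described from a list of 17. In HFD over SD, 2 of the 17 rose and 3 fell at 2-fold, with a median log2 ratio of -0.08. Cyp8b1, the sterol 12-alpha-hydroxylase, had 20532 counts in SD and 3772 in HFD (log2 ratio -2.54, -2.59 to -2.49), G6pc, of glucose-6-phosphatase, had 12625 and 2934, and the urea cycle gene Otc had 3293 and 7464 (1.09, 1.03 to 1.15). In HFD plus JT003 over HFD 1 rose (G6pc, 1.53, 1.47 to 1.60) and 0 fell, with a median of 0.18. With CCl4 over corn oil 0 rose and 1 fell, with a median of -0.20, the fall being Cyp8b1, from 19408 to 2950 counts (-3.01, -3.06 to -2.95). In CCl4 plus JT003 over CCl4, 0 rose and 2 fell, Cyp8b1 (to 1186 counts, -1.32) and G6pc (-1.18), with a median of -0.19. The medians of all genes were between -0.01 and 0.00 in these 4 comparisons.

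Foxa2, the pioneer factor of endoderm and liver, had 619 (SD), 764 (HFD) and 601 counts (HFD plus JT003), against 669 (corn oil), 554 (CCl4) and 495 (CCl4 plus JT003). HFD over SD gave a log2 ratio of 0.21 (0.06 to 0.37), and HFD plus JT003 over HFD gave -0.37 (-0.53 to -0.21). HFD stood above both other diet libraries, but only HFD plus JT003 over HFD was past the adjusted p, and HFD over SD was not. The interval of HFD plus JT003 over SD reached 0 (-0.16, -0.32 to 0.01). For CCl4 over corn oil the ratio was -0.56 (-0.73 to -0.40), and for CCl4 plus JT003 over CCl4 it was -0.17 (-0.35 to 0.00). CCl4 plus JT003 over corn oil was -0.73 (-0.90 to -0.56), the only call among the 9 in that comparison at 1.5-fold, against 9.46% of 17338 genes, with 0 at 2-fold (4.95%) and 6 by the adjusted p alone (20.5%). Foxa2 lost this call with total counts (-0.43) and with log2 of FPKM plus 1 (-0.40) or plus 0.1 (-0.42). HFD plus JT003 over SD called 0 at either limit (5.93% and 13.3% of 17011 genes) and 4 by the adjusted p alone (26.7%). Within a library, Foxa2 had 46.9 to 74.1 counts per 100 of Foxa3, lowest in CCl4 plus JT003 and highest in HFD plus JT003. Of 9 genes that FOXA2 is known to bind in fasting metabolism, 0 rose and 5 fell in HFD over SD, with a median log2 ratio of -1.12. The largest were Ehhadh, of peroxisomal fatty acid oxidation, with 161285 counts in SD and 6754 in HFD (-4.67, -4.70 to -4.63), and Igfbp1, with 5316 and 596 (-3.24, -3.37 to -3.13). The control livers also differed for this list. Corn oil over SD had 0 higher and 2 lower at 2-fold (Ehhadh at -1.57 and Igfbp1 at -1.08), with a median of -0.48. In HFD plus JT003 over HFD 3 rose (G6pc, Igfbp1 at 1.29 and Ehhadh at 1.14) and 0 fell, with a median of 0.26. For CCl4 over corn oil 2 fell (Ppargc1b at -1.57 and Tat at -1.09) and 0 rose, with a median of -0.35, and in CCl4 plus JT003 over CCl4 1 fell (G6pc) and 0 rose, with a median of -0.46. Several of these genes are shared with the HNF4A and C/EBP lists.

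Cebpa, which drives metabolic genes and restrains division in the resting hepatocyte, differed little in the diet model. It had 9192 (SD), 9685 (HFD) and 9782 counts (HFD plus JT003), and the log2 ratios were -0.02 (-0.06 to 0.03) and -0.01 (-0.05 to 0.03). In the CCl4 model it had 9640 (corn oil), 6857 (CCl4) and 8670 counts (CCl4 plus JT003). The CCl4 library was the lowest of the 6, and its log2 ratio over corn oil was -0.78 (-0.82 to -0.74), past 1.5-fold. With library sizes taken as total counts the ratio was -0.55 and the call was lost, as it was with log2 of FPKM plus 1 or plus 0.1 (-0.54 each). CCl4 plus JT003 over CCl4 was 0.33 (0.28 to 0.37), under 1.5-fold, and CCl4 plus JT003 over corn oil was -0.45 (-0.49 to -0.41). In the same 3 libraries the 5 cell cycle genes summed to 4.76, 139 and 17.2 CPM and the 11 hepatocyte markers to 117155, 107036 and 102218 CPM. Alb is the largest part of the marker sum and was at 0.16 in CCl4 over corn oil. In that comparison 4 of the 11 markers were lower and 0 higher at 1.5-fold, against 13.9% of all genes in either direction. The median of the markers was -0.28, and the lowest was Cyp2e1 at -2.24. In CCl4 plus JT003 over CCl4, 1 was higher and 0 lower (10.6% of all genes). The part of the cell cycle genes and hepatocyte markers in the ratio of Cebpa was not tested.

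Cebpb, the paralogue that is induced in the acute phase and in regeneration, had 981 (SD), 1279 (HFD) and 1130 counts (HFD plus JT003). In the CCl4 model it had 1686 (corn oil), 1735 (CCl4) and 2672 counts (CCl4 plus JT003), all above the diet libraries. HFD over SD was 0.29 (0.17 to 0.41) on the log2 scale, and HFD plus JT003 over HFD was -0.20 (-0.32 to -0.08). CCl4 over corn oil was -0.25 (-0.34 to -0.15), which was near 0 (-0.01) with total counts as library sizes. The ratio was 0.61 (0.52 to 0.70) for CCl4 plus JT003 over CCl4, past 1.5-fold. The control livers themselves differed: corn oil over SD was 0.93 (0.82 to 1.05) for Cebpb and -0.79 (-0.97 to -0.62) for Nr5a2, the 2 genes called at 1.5-fold in that comparison, against 15.0% of 17017 genes, with 0 of the 9 at 2-fold (5.41%) and 6 by the adjusted p alone (28.7%). After centring by GC content and length these were 0.49 and -0.57, and neither was called. Vehicle, experiment and any difference in age cannot be told apart in corn oil over SD. The 8 macrophage markers, all lower at 2-fold in corn oil than in SD, summed to 66.5 CPM in corn oil and 299 in SD, and their part in these ratios was not tested.

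The ratio of the paralogues within a library depends on no scaling between libraries. Cebpb had 10.7 counts per 100 of Cebpa in SD (95% interval 9.98 to 11.4), 13.2 in HFD (12.4 to 14.0) and 11.6 in HFD plus JT003 (10.9 to 12.3). It had 17.5 in corn oil (16.6 to 18.4), 25.3 in CCl4 (24.0 to 26.7) and 30.8 in CCl4 plus JT003 (29.5 to 32.2). The 3 CCl4-model intervals did not overlap each other or those of the diet libraries. Per transcript length, as a ratio of FPKM values, Cebpb ran from 18.7 per 100 of Cebpa in SD to 54.1 in CCl4 plus JT003. Between corn oil and CCl4 the ratio differed with Cebpa lower and Cebpb at similar unscaled counts. After TMM scaling both were lower in CCl4, Cebpa at -0.78 and Cebpb at -0.25 on the log2 scale. Between the CCl4 library and CCl4 plus JT003 both were higher and Cebpb more so. This last order rests on the CCl4 library. The other CCl4 counts from the authors' pooled column, described below, held 3689 of Cebpb and 9841 of Cebpa. CCl4 plus JT003 over those counts was 0.59 for Cebpb and 0.87 for Cebpa on the log2 scale, so the ratio was then lower with JT003. The ratios were calculated after the values were seen.

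**Figure D3:**
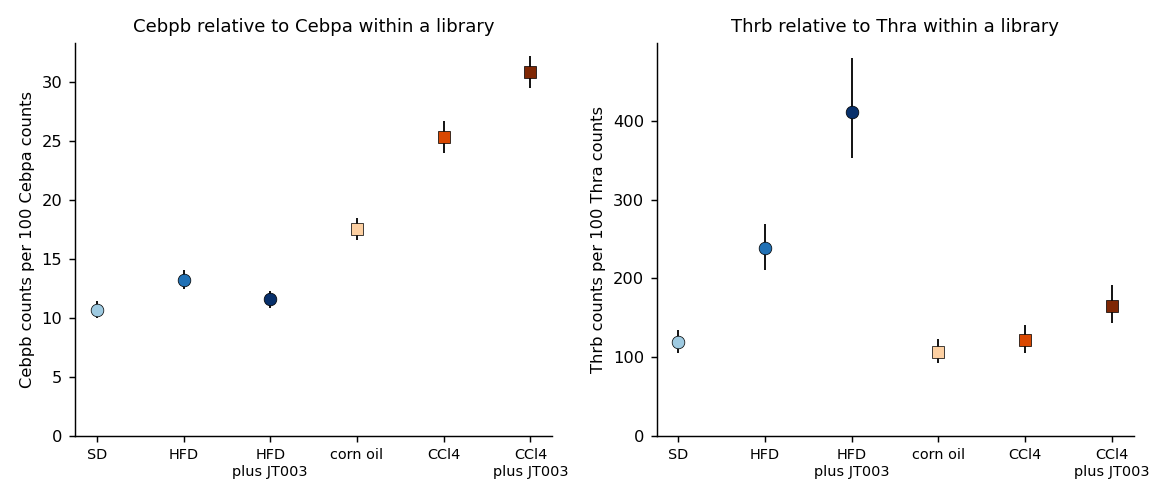
Counts of Cebpb per 100 counts of Cebpa (left) and of Thrb per 100 counts of Thra (right) within each of the 6 libraries, with 95% counting intervals as bars. Cebpb per 100 Cebpa runs from 10.7 in SD to 30.8 in CCl4 plus JT003, and Thrb per 100 Thra peaks at 411 in HFD plus JT003. Counts are not corrected for transcript length.

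Of 15 genes that C/EBP factors are known to activate, many of them acute-phase genes, 14 had reads in HFD over SD, where 0 rose and 2 fell (G6pc, and Cps1 of the urea cycle at -1.15) with a median log2 ratio of -0.40. Of the same 14, 1 rose (G6pc) and 3 fell in HFD plus JT003 over HFD, with a median of -0.32. Lcn2, a secreted siderophore-binding protein, had 1442 counts in HFD and 507 in HFD plus JT003 (-1.53, -1.68 to -1.38), and the serum amyloid genes Saa2 (-1.33) and Saa1 (-1.09) were the others. Of all 15, CCl4 over corn oil had 3 that rose (Lcn2 at 3.41, Orm2 at 2.03 and Saa3 at 1.71) and 1 fell (Tat), with a median of -0.06. In CCl4 plus JT003 over CCl4, 3 rose and 1 fell (G6pc), with a median of 0.23. Here Lcn2 went from 2714 to 9725 counts (1.83, 1.77 to 1.89), Saa2 from 2759 to 8850 (1.67) and Saa1 from 5311 to 13479 (1.33). Saa1 and Saa2 are near-identical, so the authors' counting may have split reads between them.

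Nr1h3, the oxysterol receptor LXR alpha, varied least of the 9 genes. It had 2067 (SD), 1748 (HFD) and 1788 counts (HFD plus JT003), against 1908 (corn oil), 2103 (CCl4) and 2119 (CCl4 plus JT003). HFD over SD was -0.33 (-0.43 to -0.24), and HFD plus JT003 over HFD was 0.01 (-0.09 to 0.11). The CCl4 library over corn oil was at -0.15 (-0.24 to -0.06), a sign that turned with total counts (0.09), and CCl4 plus JT003 over CCl4 was 0.00 (-0.09 to 0.09). Of 15 LXR targets, 3 rose and 0 fell in HFD over SD (Srebf1 from 664 to 2008 counts, Cyp7a1 at 1.11 and Abcg5 at 1.01), with a median log2 ratio of 0.21. In HFD plus JT003 over HFD 1 rose, Cyp7a1, the rate-limiting enzyme of bile acid synthesis, from 781 to 2160 counts (1.44, 1.33 to 1.56), and 0 fell, with a median of 0.30. In CCl4 over corn oil 2 rose (Lpl at 1.99 and Fasn at 1.75) and 3 fell (among them Cyp7a1 at -1.48 and Pltp at -1.37), with a median of 0.11. With JT003 in the CCl4 model 1 rose (Cyp7a1 at 1.01) and 1 fell (Fasn at -1.51), with a median of 0.08.

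Rxra, the shared dimer partner, had 13264 (SD), 12679 (HFD) and 12193 counts (HFD plus JT003), against 8447 (corn oil), 10325 (CCl4) and 10318 (CCl4 plus JT003). After scaling, the 3 CCl4-model libraries lay within 480 to 497 CPM and the diet libraries within 597 to 703 CPM, so that the models did not overlap. The log2 ratios within a model were small: HFD over SD was -0.16 (-0.19 to -0.12), HFD plus JT003 over HFD -0.08 (-0.12 to -0.04), CCl4 over corn oil 0.00 (-0.04 to 0.04) and CCl4 plus JT003 over CCl4 -0.01 (-0.05 to 0.03). Corn oil over SD was -0.50 (-0.54 to -0.46). Of 27 receptors related to the members, 1 rose in HFD over SD (Pparg, 100 to 275 counts, 1.35) and 0 fell, with a median log2 ratio of -0.15. In HFD plus JT003 over HFD 2 rose, among them the xenobiotic receptor Nr1i3 (2139 to 5387 counts, 1.31, 1.24 to 1.38), and 1 fell, Nr1d1 (2342 to 661 counts, -1.84, -1.97 to -1.72), with a median of 0.05. Nr1d1 is known as a clock-controlled receptor with a daily rhythm in liver. CCl4 over corn oil had 2 that fell (among them Nr1d2, another clock-controlled receptor, at -1.02) and 0 rose, with a median of -0.12. With JT003 in the CCl4 model 2 rose (among them Nr1d2 at 1.72) and 0 fell, with a median of 0.24.

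Nr5a2, encoding LRH-1, had 780 (SD), 1001 (HFD) and 980 counts (HFD plus JT003). In the CCl4 model it had 406 (corn oil), 573 (CCl4) and 374 counts (CCl4 plus JT003), all below the diet libraries. HFD over SD was 0.27 (0.13 to 0.41) and HFD plus JT003 over HFD was -0.05 (-0.18 to 0.08). CCl4 over corn oil was 0.21 (0.02 to 0.40), whereas CCl4 plus JT003 over CCl4 was -0.62 (-0.82 to -0.44), past 1.5-fold. That call was lost with total counts (-0.56) and with log2 of FPKM plus 1 (-0.46) or plus 0.1 (-0.52). Against corn oil, CCl4 plus JT003 was at -0.42 (-0.62 to -0.21). Of 9 LRH-1 targets, 3 rose in HFD over SD and 1 fell, with a median log2 ratio of 0.26. Cyp7a1 and Abcg5 were among the rises and Cyp8b1 was the fall, all given above. In HFD plus JT003 over HFD 1 rose (Cyp7a1) and 0 fell, with a median of 0.25. In CCl4 over corn oil 0 rose and 2 fell (Cyp8b1 and Cyp7a1), with a median of -0.57. In CCl4 plus JT003 over CCl4 2 rose (Cyp7a1 and the kinase gene Plk3, 1107 to 4191 counts, 1.91) and 1 fell (Cyp8b1), with a median of -0.22.

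Esr1, the estrogen receptor alpha, had the fewest reads. It had 302 (SD), 375 (HFD) and 408 counts (HFD plus JT003), against 203 (corn oil), 174 (CCl4) and 361 (CCl4 plus JT003). Both the corn oil and the CCl4 library were thus low, and the CCl4 plus JT003 library was within the range of the diet libraries. CCl4 plus JT003 over CCl4 was 1.03 (0.78 to 1.31), the 1 call at 2-fold among the 9 genes. The interval reached below 2-fold, and on the scale of log2(FPKM + 1) the ratio was 0.74. HFD over SD was 0.22 (0.00 to 0.44), HFD plus JT003 over HFD was 0.10 (-0.11 to 0.31) and CCl4 over corn oil was -0.51 (-0.81 to -0.21). Against corn oil, CCl4 plus JT003 was at 0.53 (0.28 to 0.79). The other estrogen receptor gene, Esr2, had 4 to 15 counts per library.

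Thrb, the main thyroid hormone receptor of liver, had 594 (SD), 896 (HFD) and 863 counts (HFD plus JT003), against 423 (corn oil), 413 (CCl4) and 501 (CCl4 plus JT003). HFD over SD was 0.50 (0.35 to 0.65), the largest difference of the 9 genes in that comparison, and HFD plus JT003 over HFD was -0.08 (-0.21 to 0.06). The CCl4 library over corn oil was at -0.32 (-0.52 to -0.12) and CCl4 plus JT003 over CCl4 was 0.27 (0.08 to 0.46). Thrb had 119 counts per 100 of Thra in SD (105 to 134), 238 in HFD (211 to 270) and 411 in HFD plus JT003 (353 to 480), and 107 (corn oil), 121 (CCl4) and 165 in the JT003 library of that model. These counts are not corrected for transcript length. As a ratio of FPKM values, Thrb was at 47.8 (SD), 96.4 (HFD) and 164 (HFD plus JT003) per 100 of Thra, and at 43.3, 49.2 and 67.1 in the CCl4 model, so that per length Thra was the higher gene in 5 of the 6 libraries. In the diet model Thra itself had 501, 376 and 210 counts. The 3' end of Thra overlaps Nr1d1 on the opposite strand, and Nr1d1 had 661 counts in HFD plus JT003 and 2649 in SD, so without stated strand the reads of Thra and Nr1d1 cannot be told apart. Of 14 genes of thyroid hormone response and handling, 2 rose (Thrsp, 84 to 1204 counts, 3.72, and Cyp7a1) and 1 fell (Cpt1a at -1.12) in HFD over SD, with a median log2 ratio of -0.01. In HFD plus JT003 over HFD 1 rose (Cyp7a1) and 0 fell, with a median of 0.14. The CCl4 library over corn oil had 1 that rose (Thrsp at 1.19) and 2 fell (Cyp7a1 and the transporter Slc16a10 at -1.09), with a median of -0.35. JT003 in the CCl4 model had 1 that rose (Cyp7a1) and 1 that fell (Gpd2 at -1.04), with a median of -0.30.

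The deposited comparison table of the CCl4 model holds a CCl4 column that sums to 2.97 times the CCl4 library, and it appears, from its values, to be the authors' pooled count of several CCl4 livers. Taking the CCl4 library away from it leaves counts of other CCl4 livers, without a spread between them. Over the CCl4 library, these other counts were lower for Foxa2 (554 in the library and 648 in the larger pool, log2 ratio after scaling -0.82, -0.99 to -0.66) and Cebpa (6857 and 9841, -0.53, -0.57 to -0.48), and higher for Esr1 (174 and 523, 0.53, 0.29 to 0.79). Foxa2 was the 1 call of the 9 at 1.5-fold, against 4.97% of 17471 genes, with 0 at 2-fold (1.67%) and 5 by the adjusted p alone (20.4%). The remaining 6 genes lay between -0.21 (Nr1h3) and 0.21 (Thrb). For these 3 genes the CCl4 counts thus differed among themselves by amounts like those of several comparisons above. This comparison was added after the values were seen.

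When these other counts stood in for the library, CCl4 over corn oil called 2 of the 9 at 2-fold, Cebpa at -1.33 (-1.37 to -1.28) and Foxa2 at -1.40 (-1.56 to -1.24). Esr1 was at 0.01 (-0.23 to 0.25). CCl4 plus JT003 was then higher than CCl4 for Cebpa (0.87, 0.83 to 0.91) and Foxa2 (0.66, 0.49 to 0.83), where Foxa2 had been at -0.17 with the library. Esr1 was at 0.51 (0.32 to 0.71) and was not called. Cebpb at 0.59 (0.51 to 0.66) and Nr5a2 at -0.72 (-0.89 to -0.55) were again past 1.5-fold with TMM scaling, and Hnf4a was at -0.40 for CCl4 over corn oil and -0.17 for CCl4 plus JT003 over CCl4.

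**Figure D4:**
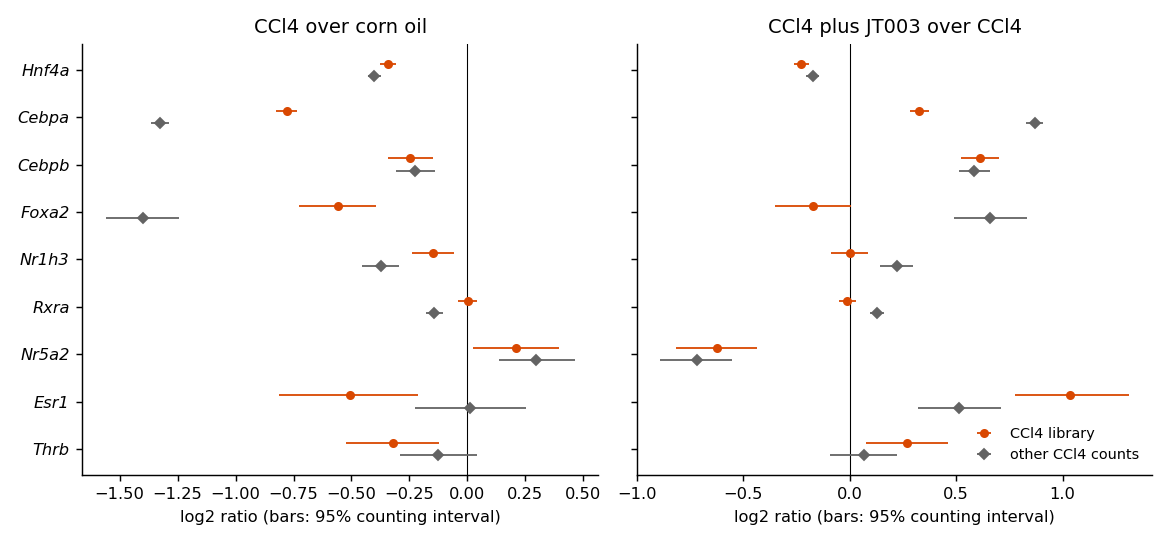
Log2 ratios of the 9 genes for CCl4 over corn oil (left) and CCl4 plus JT003 over CCl4 (right), with the CCl4 library (circles) or the other CCl4 counts from the authors' pooled column (diamonds), and 95% counting intervals as bars. Cebpa, Foxa2 and Esr1 shift most between the 2 sources.

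Of 25 other hepatocyte transcription factors, 1 rose and 1 fell in HFD over SD, with a median log2 ratio of 0.17: Srebf1, of lipid synthesis, went from 664 to 2008 counts and Atf5 from 27297 to 8224 (-1.82, -1.86 to -1.79). HFD plus JT003 over HFD called 0 of them, with a median of -0.09. In CCl4 over corn oil, Onecut1 (HNF6) fell from 135 to 61 counts (-1.40, -1.90 to -0.99) and Sox9, of bile duct and progenitor cells, rose from 161 to 440 (1.15, 0.90 to 1.43), with a median of -0.16 for the list. The controls differed for both: corn oil over SD was -1.10 for Onecut1 (324 counts in SD) and 0.68 for Sox9 (111 counts in SD). In CCl4 plus JT003 over CCl4, Onecut1 had 170 counts (1.44, 1.04 to 1.91) and Sox9 had 207 (-1.09, -1.34 to -0.86), with 1 higher and 1 lower in all and a median of -0.02. Of 15 cofactors of these factors, 0 were called in HFD over SD (median -0.08), in HFD plus JT003 over HFD (0.24) and in CCl4 plus JT003 over CCl4 (0.04). In CCl4 over corn oil 2 rose (Nrip1 at 1.91 and Tbl1x at 1.14) and 1 fell (Ppargc1b), with a median of -0.21. Nrip1 had 136 counts in SD, 15 in corn oil and 75 in CCl4, and Tbl1x had 327, 88 and 240. Between the controls, corn oil over SD was -2.88 for Nrip1 and -1.72 for Tbl1x, with 2 cofactors lower and 0 higher at 2-fold.

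The genes with the pattern nearest to each member over the 6 libraries, by the root mean square difference of centred log2 CPM among 10769 genes with a mean of at least 50 counts, were Psmd2 and Athl1 for Hnf4a (0.04 each), Sh3tc1 (0.06) and Psmc6 (0.07) for Cebpa, Rida (0.05) and BC005561 (0.08) for Cebpb, and Zscan22 (0.06) and E130311K13Rik (0.08) for Foxa2. For the receptors they were Cxxc5 (0.03) and Gins4 (0.04) for Nr1h3, Tmem127 (0.04) and Mical3 (0.05) for Rxra, Dennd4c (0.05) and Slc25a48 (0.10) for Nr5a2, P2ry1 (0.09) and Cd38 (0.10) for Esr1, and Ddr2 (0.04) and Sipa1l2 (0.05) for Thrb. Among the members the nearest pairs were Hnf4a with Foxa2 (0.17) and Cebpa with Foxa2 (0.18). With 6 points per gene and many genes, such nearness is a description only.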

How the data were processed

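Liver RNA of 6 mouse groups was read on the BGISEQ-500 platform, 1 library per group. Per the labels, the submitters' processing notes name HISAT, Bowtie2, RSEM and the mm9 build, without roles or versions. For each library the authors deposited an expected count per gene, an unnormalized estimate of its reads, and an FPKM value, which scales that count for transcript length and library size. The deposited files also hold comparison tables with fold changes and p-values by the authors, which were not used, except for a CCl4 column of expected counts, which appears to be pooled by the authors.

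Expected counts were rounded to whole numbers. In the 3 diet libraries 1 row had no gene identifier (at most 0.000242% of counts) and was left out. R 4.3.3 with edgeR 4.0.16 gave TMM factors for the library sizes, within each model (3 libraries) or, for corn oil over SD and for levels, across all 6. The factors were 0.941, 1.03 and 1.04 for SD, HFD and HFD plus JT003, and 0.884 (corn oil), 1.04 (CCl4) and 1.09 (CCl4 plus JT003). All genes with reads in either library entered an exact conditional binomial test, two-sided (p as 2 times the smaller tail, scipy 1.17.1), adjusted by Benjamini-Hochberg. Log2 ratios have a prior count of 2 and 95% Clopper-Pearson intervals. Intervals and tests cover counting error only, since PCR copies were not told apart by molecular identifiers, and no spread between mice could be estimated. The calculations were tested on simulated data. Scripts used Python 3.11.15 (numpy 2.4.6, pandas 2.3.3, matplotlib 3.10.9).

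The genes, and the lists of targets, receptors, other factors, cofactors and cell type markers, were chosen with earlier results of these data known. Named genes are the 9 members, their near relatives, up to 4 genes per list and comparison with the largest ratio among those called at 2-fold with at least 50 counts, and the 2 nearest patterns per member. Some genes that this rule names are not reported here. Hnf4aos and Nr1d1 beside Thra were named after their values were seen. Alternatives were total counts, size factors of DESeq2 1.42.0, TMM over other libraries, genes with at least 10 or 100 counts, no fold limit, an adjusted p under 0.05, a prior of 0.5 counts, an edgeR exact test at an assumed coefficient of variation of 0.2 or 0.4, log2 of FPKM plus 1 or 0.1, centring in 20 bins of GC content and of transcript length (GENCODE M21), and the pooled CCl4 counts. Promoter windows are from RefSeq on GRCm38.p6, another build than that of the files, and only sequence was taken from them.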

Additional observations from a re-analysis of the deposited data

Results flagged for a closer look

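Cebpb had log2 ratios of opposite sign with JT003 in the 2 models, each with a counting interval clear of 0. It was -0.20 in the diet model (1279 counts in HFD and 1130 in HFD plus JT003) and 0.61 in the CCl4 model (1735 counts, and 2672 once JT003 was given). The diet ratio was not past the adjusted p used for calls, whereas the CCl4 ratio was. With 1 library per group the difference between the models was not tested. Centring by GC content and length gave -0.05 and 0.59, and the other CCl4 counts from the authors' pooled column gave 0.59 in the CCl4 model.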

How the results depend on the processing

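No paired analysis was possible because each group holds 1 library, and for the same reason no library could be left out. Over 855 repeats of the members' ratios under the alternatives, 33 under 2-fold passed the adjusted p once no fold limit was set, 2 went past 2-fold under each use of the pooled CCl4 counts, and 5, all for Esr1 in CCl4 plus JT003 over CCl4, were no longer called at 2-fold. In all, 48 changed sign: 11 where the value before or after was past the adjusted p, given below, and 37 where neither was past it or the scale (FPKM) has no test. Hnf4a, Cebpb and Nr5a2 changed sign under none of the alternatives run. With total counts and with either FPKM scale, Nr1h3 changed sign in CCl4 over corn oil and in CCl4 plus JT003 over corn oil, as did Thrb in the latter. Values below follow the order HFD over SD, HFD plus JT003 over HFD, CCl4 over corn oil, CCl4 plus JT003 over CCl4, HFD plus JT003 over SD, CCl4 plus JT003 over corn oil, and corn oil over SD. Genes called at 2-fold numbered 912, 278, 1237, 768, 1008, 859 and 921. Without the fold limit they were 3968, 2422, 4492, 4180, 4542, 3548 and 4887, with members called at 6, 3, 4, 5, 4, 6 and 6 of 9. At an assumed coefficient of variation of 0.2 they were 179, 19, 346, 165, 203, 138 and 105, and at 0.4 they were 11, 0, 59, 0, 5, 24 and 6, with 0 members at either limit. With log2 of FPKM plus 0.1 they were 1636, 947, 2305, 1557, 1827, 2122 and 1735. With FPKM plus 1 they were 496 for CCl4 plus JT003 over CCl4, 668 for HFD plus JT003 over SD and 509 for corn oil over SD. An adjusted p under 0.05 gave 460 for HFD plus JT003 over HFD, and genes with at least 100 counts gave 556 for CCl4 plus JT003 over corn oil.

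Members called at 1.5-fold differed as follows, beside the settings above. HFD over SD had 1 with total counts and 1 with FPKM plus 0.1, in place of 0. CCl4 over corn oil had 0 with total counts and with either FPKM scale, and 2 with TMM over all 6 libraries, in place of 1. CCl4 plus JT003 over corn oil had 2 with total counts, DESeq2 size factors, TMM over all 6 libraries and FPKM plus 0.1, in place of 1. CCl4 plus JT003 over CCl4 had 2 with total counts and either FPKM scale, and 4 with either use of the pooled counts, in place of 3. Corn oil over SD had 0 after GC and length centring, and 3 with total counts and either FPKM scale, in place of 2. The authors' pooled CCl4 counts, and these less the library, each gave 2 members at 2-fold and 2 at 1.5-fold for CCl4 over corn oil, and 0 at 2-fold for CCl4 plus JT003 over CCl4, where FPKM plus 1 also gave 0. The cause of these shifts was not tested.

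Among the 11, Cebpa was 0.11 with total counts in both HFD over SD and HFD plus JT003 over SD, and -0.062 after GC and length centring in corn oil over SD, where Thrb was 0.019. Rxra was 0.29 with total counts in CCl4 plus JT003 over corn oil. With the pooled counts and with these less the library, Rxra was -0.091 and -0.14 in CCl4 over corn oil and 0.076 and 0.13 in CCl4 plus JT003 over CCl4, where Foxa2 was 0.33 and 0.66. Total counts moved the median log2 ratio of all genes to 0.12, 0.00, 0.23, 0.06, 0.13, 0.32 and -0.05, and the share of called genes that were higher from 54.3%, 66.4%, 53.4%, 65.2% and 40.3% to 65.5%, 81.9%, 66.6%, 85.7% and 29.9% for HFD over SD, CCl4 over corn oil, HFD plus JT003 over SD, CCl4 plus JT003 over corn oil and corn oil over SD. Ratios are therefore relative to the bulk of genes. Depth limits Esr1 most, with 174 to 408 counts per library.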
